A study of Mus musculus with 6 samples.

Results

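The mitochondrial genome of the mouse encodes 37 genes: 13 mRNAs for subunits of the respiratory chain, 2 ribosomal RNAs and 22 transfer RNAs. Transcripts of these genes were followed in RNA sequencing counts from the aorta of 6 samples. They were chosen by name, as every gene whose symbol starts with mt-, and the rule found 37 of the 55401 gene identifiers in the count table. The study asked how loss of interleukin-16, a cytokine that signals through CD4, alters expression in the aorta of mice prone to atherosclerosis. All 6 samples carried the ApoE-/- genotype, which removes apolipoprotein E, a ligand for the clearance of lipoproteins, and the mice of both groups received high-fat feeding, begun at 8 weeks of age, over 24 weeks. In 3 samples this was the only mutation (ApoE-/-, written Apo-/- in the titles), and in 3 it was combined with loss of interleukin-16 (IL16-/-ApoE-/-, called double mutants here). Whether the 3 samples of a group came from separate animals is not stated, so p-values reflect the spread among these samples alone, and that spread may be technical.

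Mitochondrial DNA is transcribed from both strands into long precursors, in which transfer RNAs stand between most of the mRNAs and rRNAs and mark where the precursor is cut. The released mRNAs have almost no untranslated ends, receive a short poly(A) tail and are translated inside the organelle into core subunits of complexes I, III, IV and V, while the nucleus encodes the other subunits and the whole of complex II. Because all but mt-Nd6 and a minority of the tRNAs come from one strand as one precursor, differences in level between these mRNAs are set largely by processing and stability. In artery wall the smooth muscle layer is a main source of these transcripts, and fat around the vessel, which is rich in mitochondria where it is brown, can add to them.

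The sequences that bear on the counts are printed first. They come from the GENCODE M21 transcripts, whose positions refer to mouse assembly GRCm38, and they are reference sequences, not reads of these samples. The first 120 bases of mt-Nd3, at chrM:9459-9578 on the plus strand, are shown beside those of Gm28438, an annotated copy of it in nuclear DNA, at chr1:24613000-24613119 on the minus strand, because mt-Nd3 gave the largest difference of the mRNAs. Capitals mark the base that is not shared, the substitution T3C, counted from the first base of mt-Nd3. It was the only difference over the 345 bases of the copy.
mt-Nd3: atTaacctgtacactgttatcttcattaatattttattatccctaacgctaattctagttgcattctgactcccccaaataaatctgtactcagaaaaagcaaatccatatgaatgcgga
Gm28438: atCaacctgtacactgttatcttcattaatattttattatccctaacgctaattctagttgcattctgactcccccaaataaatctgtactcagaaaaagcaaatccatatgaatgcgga

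Bases 1054 to 1103 of mt-Co1, at chrM:6381-6430, are shown beside the first 50 bases of Gm29216, at chr1:24616148-24616197 on the minus strand, since the ratio of their counts differed between the groups. Capitals mark the 6 differing bases (T1056A, C1057T, A1059G, A1060G, C1062A and A1066T, counted from the first base of mt-Co1). They are all of the differences over the 492 bases of Gm29216, which runs to the end of mt-Co1.
mt-Co1: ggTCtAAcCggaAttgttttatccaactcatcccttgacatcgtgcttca
Gm29216: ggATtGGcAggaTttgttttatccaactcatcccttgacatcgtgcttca

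The last 30 bases of mt-Co3 (chrM:9361-9390), mt-Nd4 (chrM:11515-11544), mt-Cytb (chrM:15259-15288) and mt-Nd3 (chrM:9777-9806) show what the poly(A) tail adds to these mRNAs. Capitals mark the bases of the stop codon that the gene itself holds. mt-Co3, mt-Nd4 and mt-Cytb hold only the T, and the poly(A) tail completes the stop codon, whereas mt-Nd3 holds a whole one.
mt-Co3 end: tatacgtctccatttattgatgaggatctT
mt-Nd4 end: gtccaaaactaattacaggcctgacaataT
mt-Cytb end: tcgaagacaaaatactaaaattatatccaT
mt-Nd3 end: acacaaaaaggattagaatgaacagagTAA

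Some stretches are shared by neighbouring genes, and reads in them belong to either. Capitals mark the 43 bases of mt-Atp8 that also belong to mt-Atp6 (chrM:7910-7969 is shown), the 7 bases of mt-Nd4l that also belong to mt-Nd4 (chrM:10150-10173) and the 14 bases of mt-Nd5 whose opposite strand belongs to mt-Nd6 (chrM:13535-13565).
mt-Atp8 overlap: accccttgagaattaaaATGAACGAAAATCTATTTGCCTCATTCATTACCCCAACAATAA
mt-Nd4l overlap: aatctcaacctactacaATGCTAA
mt-Nd5 overlap: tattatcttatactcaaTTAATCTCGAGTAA

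Library totals were 65730552 to 85568269 counts in ApoE-/- against 42861980 to 47208779 for the double mutants. Levels are in TMM-scaled CPM, in which counts are taken relative to the total of their library, and sets of 3 values stand in the order of libraries 1, 2 and 3 of a group. Il16 had 28.3, 28.7 and 15.1 CPM in ApoE-/- against 7.93, 12.1 and 12.2 CPM for the double mutants. Each double mutant was lower, yet counts remained and the difference missed the threshold (log2 fold change -1.16, adjusted p = 0.163, edgeR's quasi-likelihood test with Benjamini-Hochberg adjustment over all genes tested). Libraries within ApoE-/- varied more than within the double mutants, with a biological coefficient of variation of 0.593 against 0.209. Of 19833 genes tested, 226 were higher (1.14%) and 12 lower (0.0605%) in the double mutants at an adjusted p of 0.05. The 6 smooth muscle markers were present throughout, with sums of 4289, 19092 and 27423 CPM in ApoE-/- against 9749, 8613 and 9455 CPM for the double mutants. ApoE-/- 1 thus had the lowest sum of the 6 libraries. Of these markers 0 of 6 had a positive log2 fold change, against 46.4% of all genes tested. Their median was -0.96, and 0 were called by edgeR, against 1.20% of all genes tested in either direction.

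The share of all counts that fell on the 37 genes did not separate the groups. It was 18.4%, 10.5% and 16.6% in ApoE-/- libraries against 15.8%, 13.9% and 15.5% for the double mutants. ApoE-/- held both the highest and the lowest library. The means were 15.2% ± 4.13 and 15.1% ± 1.05 (SD, n = 3 each), a difference of -0.102 percentage points (exact permutation test, two-sided, p = 1, where 0.1 is the smallest p that 3 against 3 allows). Counting error was small beside this spread, since the Wilson 95% intervals reached at most 0.011 percentage points to either side. Intervals of this kind cover counting error only, as the reads carry no stated molecular identifiers. In bulk tissue, a lower level can come from fewer cells of a type or from less RNA per cell, and these cannot be told apart.

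Of the 37 genes, 36 passed the filter on low counts and 0 passed the test in either direction, against 1.14% of all genes tested in the higher direction, 0.0605% in the lower and 1.20% in either. At an unadjusted p below 0.05 there were 5 of 36, against 15.9% of all genes tested: mt-Nd3, mt-Tc and mt-Tp were higher (8.87% of all genes), and mt-Tk and mt-Tr lower (7.03%). DESeq2 placed 3 higher (mt-Nd3, mt-Tc and mt-Tp) and 1 lower (mt-Nd4l), against 6.23% and 2.33% of all genes, and limma-voom placed 0, against 1.95% higher and 0.116% lower. Log2 fold changes were positive for 18 and negative for 18, with a median of -0.0008, against a median of -0.05 over all genes tested. All 3 double mutants lay above all 3 ApoE-/- for 7 of 36 (14.9% of all genes) and below for 5 of 36 (11.5%), together 12 of 36 against 26.4%.

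**Figure D1:**
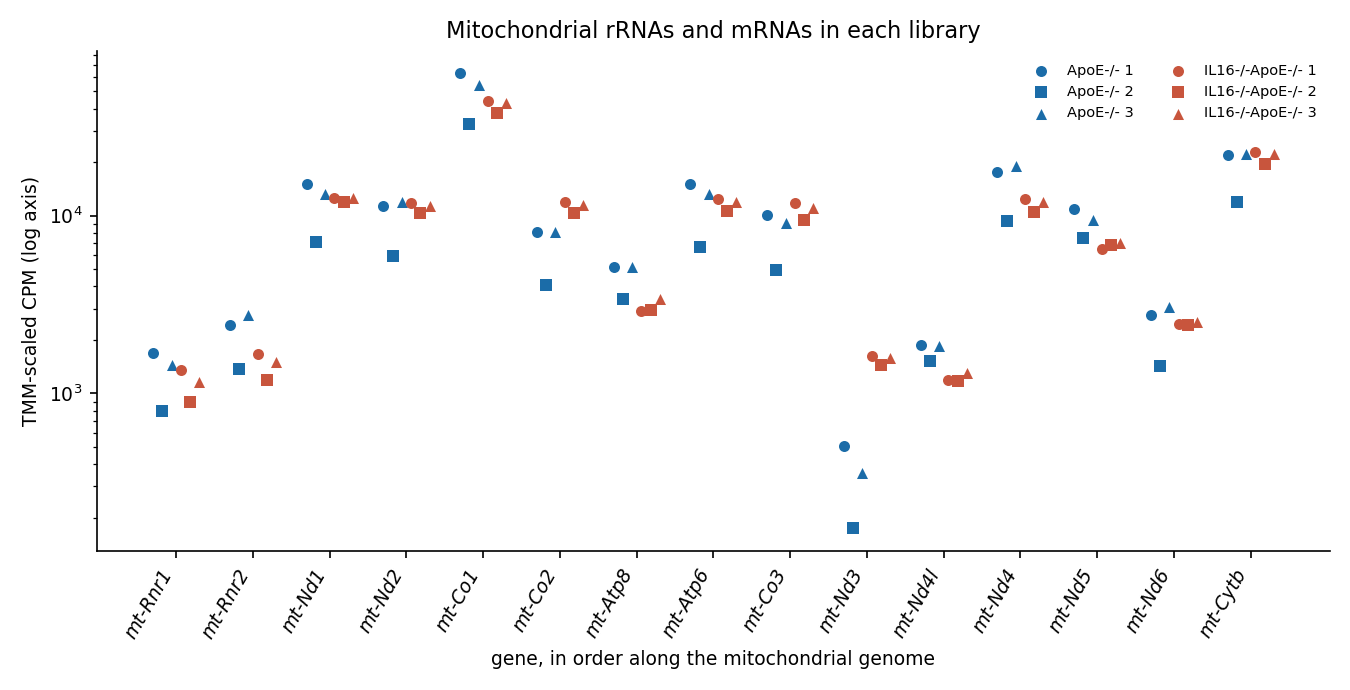
TMM-scaled CPM (log axis) of the 2 mitochondrial rRNAs and 13 mRNAs in each library, in genome order, with 1 point per library. ApoE-/- 2 is the lowest library for most genes, and mt-Nd3 is the gene whose groups lie farthest apart, at 174 to 508 CPM in ApoE-/- against 1439 to 1622 CPM for the double mutants.

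Complex I, the NADH dehydrogenase that passes electrons to ubiquinone, takes 7 of its core membrane subunits from this genome. Per kilobase of gene and averaged over the 6 libraries, mt-Nd1 was the most abundant at 12594 CPM, followed by mt-Nd2 at 10077 and mt-Nd4 at 9770, while mt-Nd4l, mt-Nd6, mt-Nd5 and mt-Nd3 lay at 4990, 4700, 4400 and 2722 CPM per kilobase.

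mt-Nd3 (ENSMUSG00000064360, chrM:9459-9806), whose product lies beside the ubiquinone site, was at 508, 174 and 356 CPM in ApoE-/- against 1622, 1439 and 1584 CPM for the double mutants. The groups did not overlap, and the lowest double mutant stood well above the highest ApoE-/- library. The means were 346 ± 167 and 1548 ± 96.2 CPM (SD, n = 3 each), a ratio of 4.48. By edgeR's quasi-likelihood test the log2 fold change was 2.16 (SE 0.43, unadjusted p = 0.00179), and its adjusted p of 0.0845 missed the threshold. Over 18 alternative settings the adjusted p ran from 7.55e-06 to 0.338 and the log2 fold change from 1.85 to 2.55. It passed the test with DESeq2 (adjusted p = 7.55e-06), with library sizes set to the mitochondrial mRNA counts (0.0477, where 1.73% of all genes were higher and 0.0605% lower), and without ApoE-/- 1 (0.00508), a setting under which 13.1% of all genes were called higher and 12.8% lower.

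mt-Nd1 (chrM:2751-3707), the subunit at the junction with the peripheral arm, was at 15023, 7070 and 13158 CPM in ApoE-/- against 12625, 11894 and 12543 CPM for the double mutants (log2 fold change 0.07, SE 0.41, edgeR adjusted p = 0.945). mt-Nd2 (chrM:3914-4951), a proton-pumping subunit, was at 11364, 5932 and 11993 CPM against 11834, 10311 and 11327 CPM (log2 fold change 0.19, SE 0.40, edgeR adjusted p = 0.831). For both genes ApoE-/- 2 lay far below the other libraries. The remaining ApoE-/- values exceeded those of the double mutants for mt-Nd1 and lay among or above them for mt-Nd2. mt-Nd4 (chrM:10167-11544), another proton-pumping subunit, was at 17488, 9315 and 19119 CPM against 12436, 10462 and 11960 CPM (log2 fold change -0.40, SE 0.42, edgeR adjusted p = 0.654). mt-Nd4l (chrM:9877-10173), read from the same mRNA as mt-Nd4, was at 1865, 1513 and 1849 CPM against 1189, 1178 and 1298 CPM (log2 fold change -0.51, SE 0.26, edgeR adjusted p = 0.383). Here all 3 double mutants were below all 3 ApoE-/- libraries. DESeq2 called mt-Nd4l lower (adjusted p = 0.0334, the lowest of a range of 0.0334 to 0.732 over the alternatives).

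mt-Nd5 (chrM:11742-13565), the largest subunit encoded here, was at 10840, 7448 and 9496 CPM in ApoE-/- against 6472, 6838 and 7059 CPM for the double mutants. The groups did not overlap, although ApoE-/- 2 stood close to the double mutants, and the test was not passed (log2 fold change -0.45, SE 0.33, edgeR adjusted p = 0.537). mt-Nd6 (chrM:13552-14070), the only mRNA on the minus strand, was at 2752, 1429 and 3049 CPM against 2471, 2420 and 2516 CPM (log2 fold change 0.03, SE 0.37, edgeR adjusted p = 0.971). Its share of the mitochondrial mRNA counts was 1.502%, 1.48% and 1.79% against 1.60%, 1.79% and 1.66%, and the groups overlapped (difference 0.0948 percentage points, exact permutation test, two-sided, p = 0.5). Set against mt-Nd5 alone, the gene it overlaps from the other strand, mt-Nd6 held 20.2%, 16.1% and 24.3% of the summed counts of the pair in ApoE-/- and 27.6%, 26.1% and 26.3% in the double mutants. That share was higher in all 3 double mutants, by 6.47 percentage points (exact permutation p = 0.1, the smallest possible).

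Complex III, which passes electrons from ubiquinol to cytochrome c, has 1 subunit from this genome. mt-Cytb (chrM:14145-15288) was at 22004, 11972 and 22164 CPM in ApoE-/- against 22815, 19508 and 22298 CPM for the double mutants (log2 fold change 0.20, SE 0.42, edgeR adjusted p = 0.827). Apart from ApoE-/- 2, the ApoE-/- values lay within the range of the double mutants.

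The 3 core subunits of complex IV, the cytochrome c oxidase, differed in the sign of their log2 fold changes. mt-Co1 (chrM:5328-6872), which holds the site that reduces oxygen and was the most abundant of the 13 mRNAs at 29579 CPM per kilobase, was at 62981, 32701 and 53917 CPM in ApoE-/- against 43985, 37539 and 43078 CPM for the double mutants (log2 fold change -0.26, SE 0.44, edgeR adjusted p = 0.788). mt-Co2 (chrM:7013-7696), which takes electrons from cytochrome c, was at 8055, 4099 and 8137 CPM against 11996, 10302 and 11468 CPM (log2 fold change 0.73, SE 0.40, edgeR adjusted p = 0.410). The double mutants were all above ApoE-/- for mt-Co2, while for mt-Co1 the groups overlapped. mt-Co3 (chrM:8607-9390), the third core subunit, was at 10061, 4965 and 9037 CPM against 11823, 9455 and 10975 CPM (log2 fold change 0.42, SE 0.40, edgeR adjusted p = 0.623), with double mutant 2 inside the range of ApoE-/-. Per kilobase, mt-Co2 was at 9889 CPM in ApoE-/- against 16455 CPM for the double mutants, so that it stood below mt-Co3 (10231 CPM) in the first group and above it (13713 CPM) in the second.

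Complex V, the ATP synthase, takes its subunits a and 8 from a single mRNA in which the frames of mt-Atp8 and mt-Atp6 overlap. mt-Atp8 (chrM:7766-7969) was at 5173, 3400 and 5111 CPM in ApoE-/- against 2893, 2933 and 3380 CPM for the double mutants (log2 fold change -0.57, SE 0.32, edgeR adjusted p = 0.422). mt-Atp6 (chrM:7927-8607) was at 15040, 6621 and 13183 CPM against 12449, 10652 and 11922 CPM (log2 fold change 0.01, SE 0.43, edgeR adjusted p = 0.995). Although they share an mRNA, the counts of mt-Atp8 separated the groups, narrowly, and those of mt-Atp6 did not. mt-Atp8 is the upstream frame of the pair, as mt-Nd4l is of mt-Nd4.

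The rRNAs of the mitochondrial ribosome, in libraries made from polyadenylated RNA, averaged 1278 CPM per kilobase for mt-Rnr1 and 1149 for mt-Rnr2, below each mRNA. Within ApoE-/-, mt-Nd3 was lower still at 994 CPM per kilobase. mt-Rnr1 (chrM:70-1024), the small-subunit rRNA, was at 1687, 793 and 1438 CPM in ApoE-/- against 1350, 898 and 1157 CPM for the double mutants (log2 fold change -0.20, SE 0.37, edgeR adjusted p = 0.804). mt-Rnr2 (chrM:1094-2675), the large-subunit rRNA, was at 2417, 1367 and 2766 CPM against 1661, 1186 and 1508 CPM (log2 fold change -0.59, SE 0.36, edgeR adjusted p = 0.457). Both rRNAs overlapped between groups. As a share of the counts of the 37 genes, however, the rRNAs held 2.19%, 2.18% and 2.40% in ApoE-/- and 1.90%, 1.52% and 1.73% in the double mutants. This share was lower in each double mutant, with a difference of -0.540 percentage points (exact permutation test, two-sided, p = 0.1, the smallest possible).

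The 22 tRNA genes together held 0.255%, 0.279% and 0.274% of the mitochondrial counts in ApoE-/- and 0.280%, 0.266% and 0.273% in the double mutants, with overlapping groups (exact permutation p = 0.8). A mature tRNA has no poly(A) tail and is shorter than the library fragments, so that these libraries are not made to measure tRNAs. Of the 22, 21 were tested and 0 were called by edgeR, with 10 positive and 11 negative log2 fold changes. mt-Tv, between the rRNAs, was the 1 gene that was not tested, at 0.143, 0.158 and 0.261 CPM against 0.161, 0.105 and 0.140 CPM.

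The tRNA genes with the highest counts were mt-Ts1, at 228, 105 and 225 CPM in ApoE-/- against 198, 144 and 181 CPM in the double mutants, and mt-Te, at 99.0, 59.8 and 123 CPM against 96.7, 85.4 and 92.8 CPM. Both lie on the minus strand, mt-Ts1 opposite the end of mt-Co1 and mt-Te beside mt-Nd6, and both overlapped between groups (edgeR adjusted p = 0.910 and 0.957). mt-Tl1, which follows mt-Rnr2, was at 46.5, 32.6 and 51.4 CPM against 31.5, 36.1 and 33.3 CPM (edgeR adjusted p = 0.402). mt-Tm was at 9.51, 7.64 and 11.6 CPM against 9.52, 9.66 and 11.4 CPM, and mt-Tn at 8.89, 8.18 and 8.96 CPM against 12.4, 9.64 and 11.5 CPM (edgeR adjusted p = 0.870 and 0.402). Of these 2, only mt-Tn had groups that did not overlap.

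mt-Tp, the minus-strand proline tRNA beside the control region, was at 24.2, 19.1 and 16.3 CPM in ApoE-/- against 34.3, 29.8 and 31.5 CPM for the double mutants. All 3 double mutants were above all 3 ApoE-/- libraries, and the log2 fold change was 0.68 (SE 0.19, unadjusted p = 0.00913, edgeR adjusted p = 0.164, from 0.00963 to 0.600 over the alternatives). The cysteine tRNA mt-Tc was chosen after its values were seen, as were mt-Tk and mt-Tr. It was at 4.83, 3.28 and 4.85 CPM against 9.03, 6.65 and 9.45 CPM, again without overlap (log2 fold change 0.95, SE 0.28, unadjusted p = 0.0124, edgeR adjusted p = 0.187). mt-Tk had log2 fold change -1.20 and mt-Tr -0.88, with edgeR adjusted p = 0.254 and 0.292 and levels of at most 6.66 CPM. mt-Tc belongs to the minus-strand cluster of mt-Ta, mt-Tn, mt-Tc and mt-Ty. Its log2 fold change was the largest there, against 0.33 for mt-Ta, 0.37 for mt-Tn and 0.44 for mt-Ty. The sequence of mt-Tc, at chrM:5192-5257 on the minus strand, is printed with the anticodon in capitals.
mt-Tc: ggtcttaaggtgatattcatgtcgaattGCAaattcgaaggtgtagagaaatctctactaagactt

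Sorted by strand, the 8 minus-strand tRNA genes had 6 positive log2 fold changes, a range of -0.09 to 0.95 and a median of 0.35. The 13 tested genes of the plus strand had 4 positive ones, a range of -1.20 to 0.96 and a median of -0.17. Neighbouring genes share a precursor, so these are not independent values, and the difference between strands was not tested.

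The make-up of the mitochondrial mRNA counts differed more clearly than their total. Each mRNA was expressed as a share of the summed counts of the 13 mRNAs in its library, which takes out the library's mitochondrial level. On this scale the groups did not overlap for 10 of the 13 mRNAs, 5 higher and 5 lower in the double mutants. Over all genes tested, set on the same denominator, 13.7% were higher, 4.00% lower and 17.7% apart in either direction. That is not a like baseline, since the denominator is the sum of these 13 mRNAs. Dividing by it takes out variation that they share, but not that of other genes. In CPM the groups did not overlap for 5 of the 13, against 26.4% of all genes tested. The shares sum to 100%, so a gain by one mRNA is a loss of the others.

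Among the 5 higher ones, mt-Nd3 held 0.278%, 0.180% and 0.208% of the mitochondrial mRNA counts in ApoE-/- and 1.05%, 1.07% and 1.05% in the double mutants. mt-Co2 held 4.40%, 4.24% and 4.77% against 7.76%, 7.64% and 7.57%. For both, the 3 double mutants lay close together and far from ApoE-/-. mt-Co3 held 5.49%, 5.14% and 5.30% against 7.65%, 7.01% and 7.25%, mt-Cytb 12.0%, 12.4% and 12.99% against 14.8%, 14.5% and 14.7%, and mt-Nd2 6.20%, 6.14% and 7.03% against 7.65%, 7.64% and 7.48%.

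Among the 5 lower ones, mt-Co1 held 34.4%, 33.8% and 31.6% in ApoE-/- and 28.4%, 27.8% and 28.5% in the double mutants, remaining the mRNA with the largest share in every library. mt-Nd4 held 9.55%, 9.64% and 11.2% against 8.04%, 7.75% and 7.90%, and mt-Nd5 5.92%, 7.71% and 5.57% against 4.19%, 5.07% and 4.66%. mt-Atp8 held 2.82%, 3.52% and 3.00% against 1.87%, 2.17% and 2.23%. For mt-Nd5 and mt-Atp8, ApoE-/- 2, the library with the lowest mitochondrial share, held the largest share of the 6. mt-Nd4l held 1.02%, 1.57% and 1.08% against 0.769%, 0.873% and 0.857%, again with the largest share in ApoE-/- 2. The shares of mt-Nd1, mt-Atp6 and mt-Nd6 overlapped between groups. The widest Wilson 95% interval of any of these shares reached 0.036 percentage points to either side, less than the gap between the groups for each of the 10.

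**Figure D2:**
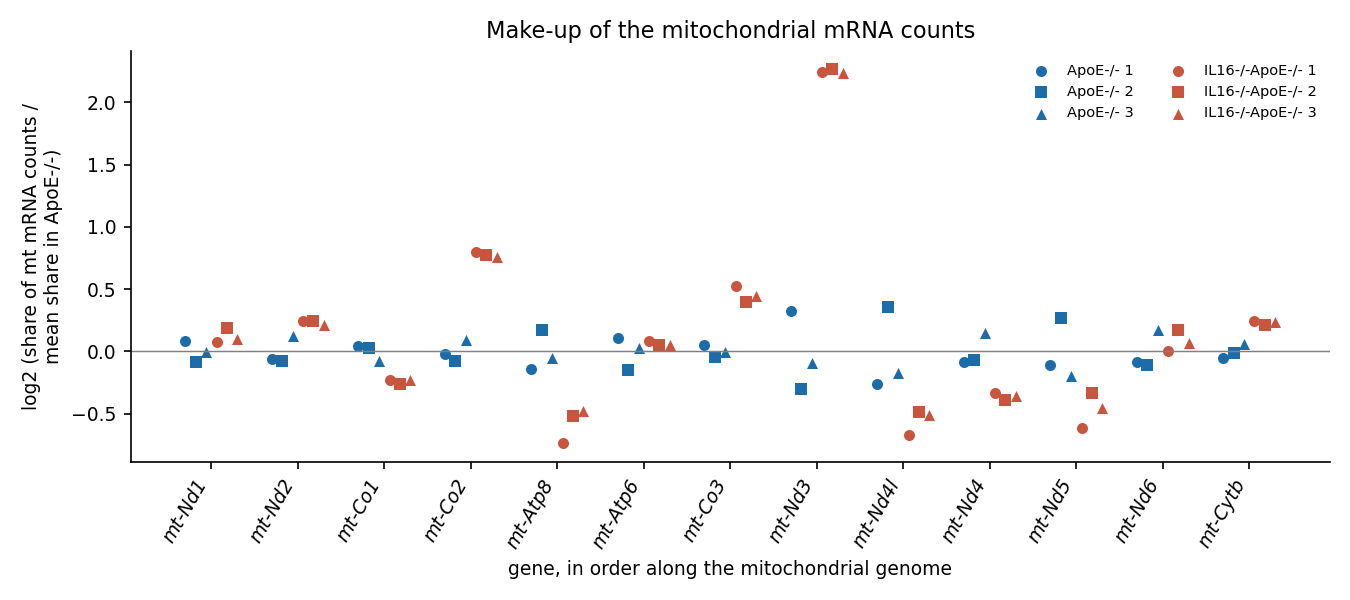
Share of each mRNA in the mitochondrial mRNA counts of its library, as log2 of the ratio to the mean share in ApoE-/-, with 1 point per library. mt-Nd3, mt-Co2 and mt-Co3 stand above ApoE-/- in all 3 double mutants, and mt-Co1, mt-Atp8, mt-Nd4l, mt-Nd4 and mt-Nd5 below.

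A ratio of mRNAs from the same strand does not depend on the scaling of the libraries. Per base of gene, mt-Nd3 was at 0.114, 0.0790 and 0.0886 of its upstream neighbour mt-Co3 in ApoE-/- and at 0.309, 0.343 and 0.325 in the double mutants. Against its downstream neighbour mt-Nd4l, it was at 0.233, 0.0982 and 0.164 in ApoE-/- and at 1.16, 1.04 and 1.04 in the double mutants. Both ratios were higher in all 3 double mutants (exact permutation test, two-sided, p = 0.1 each, the smallest possible), and both were chosen after the counts of mt-Nd3 had been seen. Beside mt-Nd4l, mt-Nd3 was the scarcer of the 2 in every ApoE-/- library and the more abundant in every double mutant library. That reversal did not hold for mt-Nd4, the other frame of the mRNA of mt-Nd4l. Per kilobase, mt-Nd3 averaged 994 CPM in ApoE-/- and 4449 CPM in the double mutants, below mt-Nd4 at 11108 and 8432 CPM.

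The differences were then set in order of mRNA length. The 12 plus-strand mRNA genes form 10 mRNAs, as mt-Atp8 with mt-Atp6 and mt-Nd4l with mt-Nd4 share one each. In mean log2 CPM, the double mutants differed from ApoE-/- by 2.29 for mt-Nd3 (348 bases), 0.80 for mt-Co2 (684) and 0.48 for mt-Co3 (784). Intermediate mRNAs differed by -0.07 for mt-Atp8/mt-Atp6 (842 bases), 0.14 for mt-Nd1 (957), 0.26 for mt-Nd2 (1038) and 0.26 for mt-Cytb (1144). The longest differed by -0.21 for mt-Co1 (1545 bases), -0.35 for mt-Nd4l/mt-Nd4 (1668) and -0.43 for mt-Nd5 (1824). The 3 shortest of these 10 mRNAs thus had the highest differences and the 3 longest the lowest, with no steady order among those between. mt-Nd6, on the minus strand, was left out of this order. By the length of its annotated gene it would not keep to it, but the length of its mRNA was not measured. The mt-Nd6 gene is 519 bases long, shorter than mt-Co2 and mt-Co3, and its edgeR log2 fold change of 0.03 was below theirs.

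Over the 10 mRNAs the Spearman correlation of the difference with length was -0.891, a description with no test, since the points share their 6 libraries and their precursor. Taken against ApoE-/- 1, 2 and 3 singly it was -0.879, -0.891 and -0.879. Among the double mutants, the deviation of a library from the group mean gave -0.273, 0.0303 and 0.564. Within ApoE-/-, the difference of library 1 from library 2 gave -0.855, that of 1 from 3 gave -0.212, and that of 2 from 3 gave 0.527, so libraries of 1 genotype also differed along length. The order by length was noticed after the shares had been seen.

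**Figure D3:**
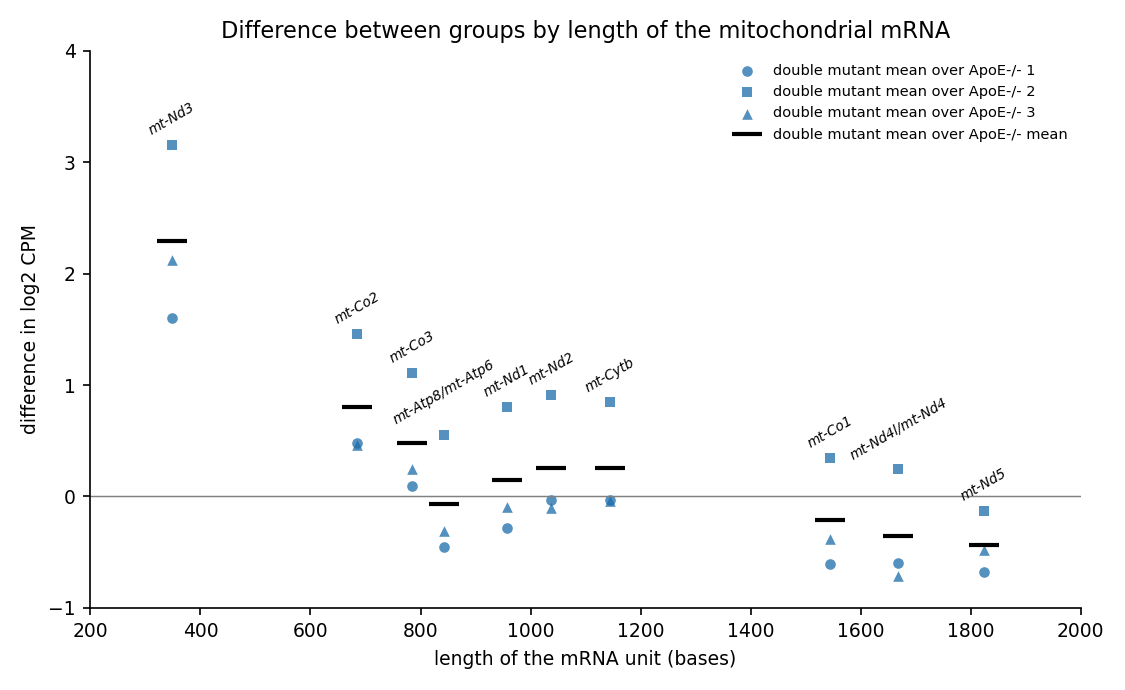
Difference in log2 CPM between the double mutant mean and ApoE-/- for the 10 plus-strand mitochondrial mRNAs, against their length in bases. Points stand for each ApoE-/- library and bars for the ApoE-/- mean. The highest bar is at 348 bases (2.29) and the lowest at 1824 bases (-0.43), with a rise from -0.07 to 0.26 between 842 and 1038 bases, and the points of ApoE-/- 2 lie above those of the other libraries for every mRNA.

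Length went with the difference in nuclear genes as well, with smaller correlations. Over 76 nuclear genes of the respiratory complexes the Spearman correlation of the edgeR log2 fold change with transcript length was -0.649, and over 19762 other tested genes it was -0.199. The shortest of those 76 (20 genes, median transcripts of 361.5 to 520 bases) had a median log2 fold change of 2.07, and the longest (19 genes, 815 to 2675.5 bases) one of 0.70.

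Nuclear DNA holds copies of mitochondrial DNA, and on chromosome 1 a block of them is annotated with gene identifiers of its own in the count table. Of these, 7 matched a mitochondrial mRNA by sequence, and 5 of them carried nearly the same counts as the gene they copy. As a share of the counts of the mitochondrial gene, Gm28661 held 96.7% to 98.9% of mt-Co2, Gm28437 97.2% to 99.6% of mt-Co3, Gm10222 98.3% to 100.3% of mt-Nd4l and Gm10925 93.4% to 106.5% of mt-Atp6 over the 6 libraries. These 4 annotated copies are identical to the mitochondrial sequence over 681, 783, 294 and 678 bases. The copies as a whole held 4.30%, 2.44% and 4.04% of all counts in ApoE-/- against 5.07%, 4.33% and 4.88% in the double mutants. With identical letters, reads cannot be assigned to one or the other, and the handling of such reads in the counting is not stated.

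Gm28438, printed above beside mt-Nd3, held 93.1%, 88.6% and 96.7% of the mt-Nd3 counts in ApoE-/- and 98.3%, 98.5% and 98.7% in the double mutants. Its log2 fold change was 2.24 (SE 0.44, edgeR adjusted p = 0.0848), against 2.16 for mt-Nd3 itself. When the counts of each copy were added to its mitochondrial gene, mt-Nd3 had a log2 fold change of 2.20 (edgeR adjusted p = 0.0925), and 0 of 36 genes were called. Since the copy carries nearly the same counts in every library, adding it could hardly move the fold change, and this setting does not test whether the reads came from one or the other.

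The copies that cover only a stretch of a gene gave a different picture. Gm29216 matches the 3′ end of mt-Co1, 31.3% of its length, and held 4.93%, 3.14% and 4.50% of the mt-Co1 counts in ApoE-/- against 16.6%, 15.4% and 16.02% in the double mutants. The means were 4.19% ± 0.936 and 16.01% ± 0.600 (SD, n = 3 each), a difference of 11.8 percentage points that all 3 double mutants showed (exact permutation test, two-sided, p = 0.1, the smallest possible; chosen after the counts were seen). Its log2 fold change was 1.61 (SE 0.47, edgeR adjusted p = 0.188), opposite in sign to the -0.26 of mt-Co1. Gm28439 matches the 5′ part of mt-Nd4, 63.6% of its length, and held 39.6%, 46.6% and 36.7% of the mt-Nd4 counts in ApoE-/- against 34.3%, 36.2% and 35.0% in the double mutants. Counts on the identifier that covers a 3′ stretch were thus a larger part, and those on the identifier that covers a 5′ stretch a smaller part, of their mitochondrial gene in every double mutant library than in any ApoE-/- library.

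**Figure D4:**
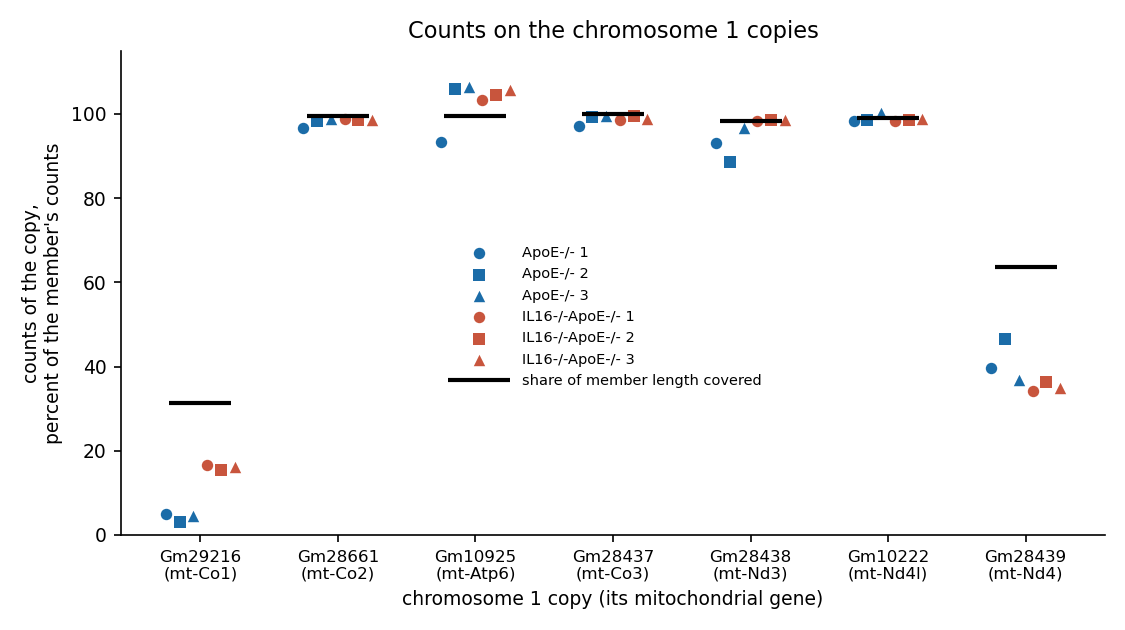
Counts of 7 chromosome 1 copies as a percent of the counts of their mitochondrial gene, with 1 point per library and a bar at the percent of the gene's length that the copy covers. Copies that cover nearly the whole gene sit near 100%, while Gm29216 sits at 3.14% to 4.93% in ApoE-/- but at 15.4% to 16.6% in the double mutants.

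Most nuclear genes of the same complexes did not pass the test, although their log2 fold changes had the same sign. All 76 nuclear genes of complexes I to V had positive log2 fold changes, with a median of 1.09, against 46.4% positive and a median of -0.05 over all genes tested. Of these, 4 passed edgeR's quasi-likelihood test (1.14% of all genes tested), and for 46 all 3 double mutants lay above all 3 ApoE-/- (14.9% of all genes). The number called was 76 of 76 without ApoE-/- 1, where 13.1% of all genes were called higher. It was 34 with DESeq2 (6.23% of all genes) and 11 with limma-voom (1.95%). Without ApoE-/- 2 it was 0 (0.499% of all genes), as it was without ApoE-/- 3 (0.802%). Without any 1 double mutant it was 0 as well, in settings where 0 of all genes tested were called. The list's mean log2 CPM was 6.63, 4.95 and 5.16 in ApoE-/- 1, 2 and 3 and 7.18, 7.07 and 7.06 in the double mutants, so that ApoE-/- 1 stood near the double mutants and apart from its own group.

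The 4 that rose all encode small accessory subunits. Ndufa1, needed for assembly of complex I, was at 13.5, 3.60 and 5.77 CPM in ApoE-/- against 72.9, 61.5 and 69.4 CPM for the double mutants (log2 fold change 3.16, SE 0.50, edgeR adjusted p = 0.0453). Atp5k, subunit e of the ATP synthase, was at 11.6, 3.51 and 3.29 CPM against 74.6, 73.7 and 72.8 CPM (log2 fold change 3.59, SE 0.54, edgeR adjusted p = 0.0425). Ndufb1-ps had a log2 fold change of 2.64 (edgeR adjusted p = 0.0440) and Ndufb2 one of 1.25 (0.0439), both of complex I.

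By complex, the median log2 fold change was 0.98 over 37 genes of complex I (3 called higher by edgeR), 0.45 over 4 of complex II (0 called), 0.97 over 9 of complex III (0 called), 1.82 over 11 of complex IV (0 called) and 0.85 over 15 of complex V (1 called), against 1.14% of all genes tested. In complex IV the double mutants lay above ApoE-/- without overlap for all 11 genes (14.9% of all genes), as for mt-Co2 but not for mt-Co1 or mt-Co3. Cox7c, a small subunit of that complex, was at 57.1, 16.6 and 22.9 CPM against 205, 209 and 206 CPM (edgeR adjusted p = 0.0667). The smallest p in complex III belonged to Uqcrh, a hinge protein of cytochrome c1, and Uqcr10 (log2 fold change 2.16 and 2.33, edgeR adjusted p = 0.0903 and 0.0982). Complex II, which has no mitochondrially encoded subunit, had 0 genes with separate groups, with Sdhc and Sdhd at log2 fold change 0.39 and 0.54 (edgeR adjusted p = 0.549 and 0.675).

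The balance between the 2 genomes was taken as the mean log2 CPM of the 13 mitochondrial mRNAs minus that of the 76 nuclear genes. It was 6.37, 7.14 and 7.75 in ApoE-/- 1, 2 and 3 and 5.72, 5.68 and 5.84 in the double mutants. All 3 double mutants were lower, and the means of 7.09 ± 0.69 and 5.74 ± 0.08 (SD, n = 3 each) differed by -1.34 (exact permutation test, two-sided, p = 0.1, the smallest possible). Leaving out any 1 library gave -1.70 to -1.01. Taken alone, the mean of the nuclear genes separated the groups and that of the mitochondrial mRNAs did not.

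**Figure D5:**
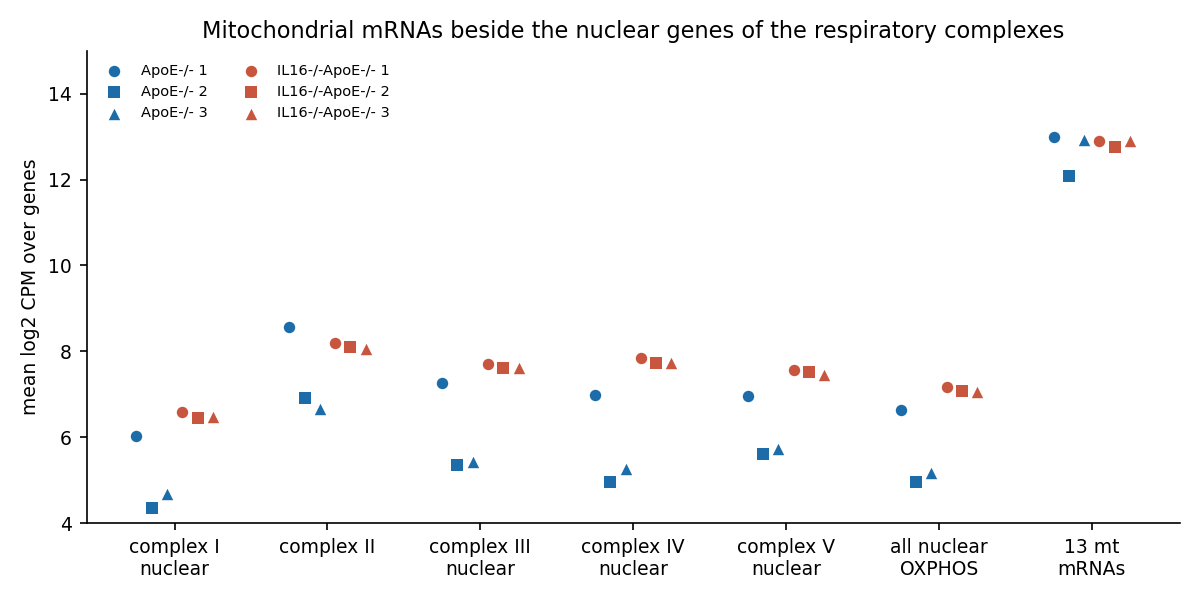
Mean log2 CPM over the nuclear genes of each respiratory complex, over all 76 of them and over the 13 mitochondrial mRNAs, with 1 point per library. For the nuclear lists ApoE-/- 2 and 3 lie below the other 4 libraries, whereas for the mitochondrial mRNAs only ApoE-/- 2 does.

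Genes that maintain and transcribe mitochondrial DNA did not pass the test: 0 of 23 were called by edgeR, with 9 positive log2 fold changes and a median of -0.06, against 1.20% of all genes called in either direction. DESeq2 and limma-voom called 0 as well. Without ApoE-/- 1 edgeR called 4 of 23 higher, against 13.1% of all genes, and 1 of 23 lower, against 12.8%. The smallest p in this list were those of Polg, the catalytic subunit of the mitochondrial DNA polymerase, at 62.9, 71.0 and 77.8 CPM against 50.6, 51.0 and 59.2 CPM (log2 fold change -0.40, unadjusted p = 0.0352, edgeR adjusted p = 0.281), and Gabpa, a nuclear factor that drives genes of the respiratory chain (-0.31, unadjusted p = 0.0740, edgeR adjusted p = 0.359). Tfam, which packages mitochondrial DNA and starts its transcription, was added for that role after its values were seen. It was at 41.4, 22.7 and 29.3 CPM against 29.0, 26.6 and 30.2 CPM, with overlapping groups (edgeR adjusted p = 0.813).

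Among 32 genes that process, modify or stabilise mitochondrial RNA, 18 had positive log2 fold changes, against 46.4% of all genes tested, and the median was 0.08. Of the 32, 1 was called higher by edgeR, against 1.14% of all genes tested. Slirp, an RNA-binding protein that works with Lrpprc to stabilise mitochondrial mRNAs, was at 8.10, 4.99 and 7.53 CPM in ApoE-/- against 23.8, 23.1 and 24.4 CPM for the double mutants. The groups were far apart beside their spread, and the log2 fold change was 1.79 (SE 0.23, edgeR adjusted p = 0.0259). Its adjusted p stayed below 0.05 without any 1 ApoE-/- library. It was 0.178 to 0.196 without any 1 double mutant, in settings where 0 of all genes tested were called. Lrpprc, the partner of Slirp, was added after its values were seen and stood at 62.7, 37.1 and 32.3 CPM against 61.6, 55.9 and 61.8 CPM. ApoE-/- 1 was at the level of the double mutants (log2 fold change 0.44, edgeR adjusted p = 0.448). Without ApoE-/- 1 the edgeR adjusted p of Lrpprc was 0.00755, where 13.1% of all genes were called higher and 12.8% lower.

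Sums of markers of other cell types differed between the libraries, and several separated the groups. For single markers, 1.14% of all genes tested were called higher and 14.9% had all 3 double mutants above all 3 ApoE-/-. Adipocyte genes summed to 4603, 620 and 583 CPM in ApoE-/- 1, 2 and 3 and to 4418 to 4753 CPM in the double mutants, with 1 of 6 called higher, and brown fat genes to 2330, 653 and 210 CPM against 2136 to 2488 CPM, with 0 of 6 called. By these sums ApoE-/- 1 stood with the double mutants, as by the mean of the nuclear respiratory genes it stood near them. In that library Fabp4 gave 3002 of the 4603 CPM and Ucp1 1592 of the 2330. The double mutants all lay above all ApoE-/- for 2 adipocyte genes, 1 brown fat gene and 46 of the 76 respiratory genes. Lep was at 0.871 CPM in ApoE-/- 1 against 18.7 CPM in the lowest double mutant. For Cox8b, of brown fat, these were 43.3 and 153 CPM. Dio2 and Elovl3 of that list had negative log2 fold changes (-0.59 and -1.12). Cardiac muscle genes summed to 26.3 to 80.2 CPM in ApoE-/- against 198 to 395 CPM for the double mutants, with 1 of 6 called higher and all 6 without overlap. Skeletal muscle genes summed to 2.88 to 8.54 CPM against 16.1 to 268 CPM, and endothelial genes to 562 to 990 CPM against 1144 to 1190 CPM, each with 0 of 6 called and all 6 without overlap. Erythroid and platelet genes summed to 1052 to 4705 CPM against 5026 to 13434 CPM (0 of 6 called, 3 without overlap). Of these, 5 of 6 had positive log2 fold changes, and the platelet gene Ppbp did not (-1.17). Ppbp was at 69.3, 1.12 and 13.1 CPM against 12.1, 14.5 and 10.6 CPM, with overlapping groups. Macrophage genes (337 to 4263 CPM against 4177 to 5948) and fibroblast genes (3648 to 5912 CPM against 4693 to 5323) overlapped in their sums, with 0 of 6 called in each. The 6 proximal tubule genes of the kidney, a tissue dense in mitochondria, summed to 0.174 to 0.967 CPM in ApoE-/-, where Kap, Miox, Slc22a12 and Slc5a2 had no count, and to 427 to 480 CPM in the double mutants, where all 6 were called higher. Loop of Henle and distal tubule genes summed to 0.0994 to 0.716 CPM against 60.9 to 65.9 CPM, with Umod, Slc12a1, Kcnj1 and Cldn16 at 0 in ApoE-/- and 4 of 5 tested called higher. The part of these cell types in the mitochondrial and nuclear differences was not tested.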

How the data were processed

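RNA sequencing of polyadenylated RNA from 6 mouse aorta samples, 3 per genotype, gave 1 table of raw read counts per gene, which the authors deposited as whole numbers with unequal totals and so without normalization. Per the labels' protocols, libraries were strand-marking (UDG digestion), with fragments of about 300 bases. Cutadapt, HISAT2 and StringTie are named per the submitters' processing notes. The counting program, its strand setting, its handling of reads that match several places and the genome build are not stated. Counts of genes that overlap, or have identical copies, are therefore uncertain.

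Symbols, positions and sequences come from GENCODE M21 (GRCm38), in which 55141 of 55401 identifiers matched and 260 did not. All 37 mt- genes matched. Genes were kept by filterByExpr (minimum count 10, minimum total 15), scaled by TMM and compared with edgeR 4.0.16's quasi-likelihood test (robust, two-sided, no covariate, R 4.3.3), with Benjamini-Hochberg adjustment over 19833 genes and a threshold of 0.05. CPM are TMM-scaled, and means of log2 CPM used a prior count of 2. Single values per library were compared by exact permutation over samples. The code was tested on simulated data that had the same spread in both groups, unlike these data.

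The groups come from the sample titles. All 13 mRNAs and both rRNAs, the 6 tRNA genes with the highest mean CPM, and the called members of each related list (or the 2 with the smallest p) were named. The members, lists and rule were chosen with earlier results of these data known. Alternatives were other scalings, filters, DESeq2 1.42.0, limma-voom (limma 3.58.1), a replicate block and leaving out each library. Sequences were aligned with Biopython 1.88, and figures used matplotlib 3.10.9.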

Additional observations from a re-analysis of the deposited data

How the results depend on the processing

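The number of the 37 genes called stayed at 0 in either direction under RLE and upper-quartile factors, library totals, scaling without the mt- genes (with or without their copies), other filters, limma-voom and copies added to their genes. It was 3 higher and 1 lower with DESeq2 and 1 higher (mt-Nd3) with library sizes set to mitochondrial mRNA counts, a scaling chosen after seeing the data, as were those that use the copies. Leaving out 1 library in turn gave 0 to 3 higher, the 3 without ApoE-/- 1 (mt-Nd3, mt-Tc and mt-Tp), and 0 to 0 lower. Without ApoE-/- 1, 13.1% of all genes were called higher, and without any 1 double mutant 0 of all genes tested were called. With a replicate block 0 were called, and over all genes the calls went from 238 to 0. The numbers gave no sign of pairing: the correlations of same-numbered deviations were -0.04, -0.0271 and -0.0095, and samples did not correlate best with their own number.

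The difference in mitochondrial share, -0.102 percentage points, was 0.114 over protein-coding and mt- genes and 1.06 with the copies added, and ran from -2.43 to 1.51 without 1 library. That in tRNA share ran from -0.0037 to 0.00798. The exact permutation p-values within the replicate block could not go below 0.25.

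Of 378 comparisons of a named mt- gene with its value under an alternative, 354 kept direction and side of the threshold, 6 newly passed and 18 changed sign, all with small log2 fold changes. By limma-voom mt-Ts1 was at 4.5e-05 and mt-Te at 0.033, and with the replicate block mt-Te was at 0.022. Without 1 library, log2 fold changes ran from -0.46 to 0.024 for mt-Rnr1, -0.37 to 0.081 for mt-Ts1, -0.23 to 0.24 for mt-Nd6, -0.060 to 0.36 for mt-Nd2, -0.18 to 0.29 for mt-Nd1, -0.031 to 0.34 for mt-Cytb, -0.27 to 0.24 for mt-Atp6, -0.047 to 0.24 for mt-Tm and -0.27 to 0.20 for mt-Te. The causes were not tested. Depth did not limit the mRNAs, but the tRNA genes under 1 CPM rested on few counts.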
